A study of Mus musculus with 80 samples.

Results

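The 20 mammary tumours richest in skeletal muscle transcripts and the 20 poorest in them, of 80 tumours in all, were compared gene by gene. Every mouse was of the FVB strain and bore the MMTV-Myc transgene, in which a promoter active in mammary epithelium drives the oncogene Myc. The 80 arrays covered 20 E2F1 null, 20 E2F2 null, 20 E2F3 heterozygous and 20 E2F wild-type tumours, 1 array per tumour. Tumours had been flash frozen, no treatment was recorded, and total RNA of whole tumour pieces was hybridised to Affymetrix arrays. Neither the age of the mice nor the site of each tumour is recorded in the labels used here.

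A muscle score set the groups. For Acta1, Ckm, Tnnt3, Tnnc2 and Mylpf, log2(intensity + 5) was centred on the gene's mean over the 80 arrays, and the 5 centred values of a tumour were averaged. The 20 tumours with the highest scores are called muscle-high here, and the 20 with the lowest are called muscle-low. These groups were drawn from the arrays' own values and are not groups of the study. The muscle-high group held 6 E2F1 null, 5 E2F2 null, 5 E2F3 heterozygous and 4 wild-type tumours. The muscle-low group held 4 E2F1 null, 6 E2F2 null, 4 E2F3 heterozygous and 6 wild-type tumours. The other 40 tumours lay in neither group.

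Skeletal muscle fibres contract when calcium, released from the sarcoplasmic reticulum, binds troponin on the actin filament and lets myosin heads pull. Fast fibres carry the myosin heavy chains of Myh2, Myh1 and Myh4, and slow fibres carry that of Myh7, each with its own set of troponins and light chains. Mammary glands lie under the skin beside muscle of the body wall, and mammary epithelium itself has no sarcomeres.

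The 5 score genes chose the groups, so their values are a description and carry no test. Acta1, the skeletal muscle actin, had a lowest, median and highest intensity of 922, 1955 and 4749 in muscle-high tumours, against 3.55, 33.0 and 131 in muscle-low tumours. For Tnnc2, the calcium-binding troponin of fast fibres, these intensities were 273, 640 and 1723 in muscle-high tumours, against 1.08, 2.27 and 11.2 in muscle-low tumours. Tnnt3, which ties fast troponin to tropomyosin, had 106, 226 and 679 in muscle-high tumours, against 0.651, 2.58 and 30.3 in muscle-low tumours. The groups did not overlap in any of these genes, as the choice of members led to. Ckm, the muscle creatine kinase, had 170, 345 and 792 in muscle-high tumours, against 7.30, 33.8 and 64.8 in muscle-low tumours. Mylpf, the regulatory light chain of fast myosin, had 181, 299 and 1027 in muscle-high tumours, against 30.7, 45.7 and 57.7 in muscle-low tumours.

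The 40th percentile of all deposited intensities, 74.6, serves here as a mark of dim values. All 5 score genes lay above it in 20 of 20 muscle-high tumours. In muscle-low tumours, Acta1 alone lay above it, in 3 of 20, so muscle transcripts were low there but were not shown to be absent. The score ran from 1.53 to 3.81 in muscle-high tumours and from -2.46 to -1.82 in muscle-low tumours. Both edges were narrow. The last muscle-high tumour, E2F1 null replicate 7, scored 1.53, and the next tumour outside the group, E2F3 heterozygous replicate 9, scored 1.39. The first muscle-low tumour, E2F2 null replicate 16, scored -1.82, and the nearest tumour outside that group, E2F1 null replicate 15, scored -1.81.

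**Figure D1:**
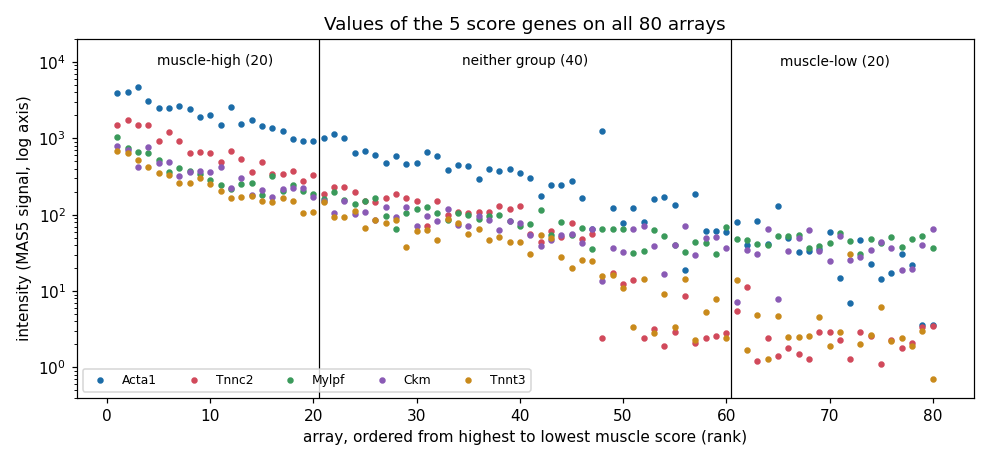
Intensities of the 5 score genes (MAS5 signal, log axis) on all 80 arrays, ordered from the highest to the lowest muscle score, with vertical lines at the group edges. Each point is 1 array. The values decline without a step across the muscle-high edge, and Tnnc2 and Tnnt3 reach single digits in most muscle-low arrays.

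The array of E2F1 null replicate 6 had the highest Col3a1 intensity of the 80, 20923, ahead of 17417 and 16028 in 2 other middle tumours, and it lay in neither group, with a score of -0.91. Its Acta1 intensity of 1238 was the highest of the 40 middle tumours, while its Ckm, Tnnt3 and Tnnc2 intensities were 13.6, 15.9 and 2.45. Array quality did not differ detectably between the groups. The median log2 value was 7.22 ± 0.09 in muscle-high and 7.22 ± 0.11 in muscle-low tumours (SD, n = 20 each), and the log2 ratio of 3' to 5' control signal was -0.29 ± 0.10 in muscle-high and -0.28 ± 0.07 in muscle-low tumours for Gapdh. For beta-actin that ratio was 0.76 ± 0.31 in muscle-high and 0.80 ± 0.17 in muscle-low tumours, and the adjusted p over the 3 measures was 0.975 for each (permutation test, two-sided).

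Krt8 and Myc were bright in both groups, while the mean lay above the dim mark for 12 of 16 luminal genes in muscle-high and 13 of 16 in muscle-low tumours. Krt8, a keratin of luminal epithelium, had a lowest, median and highest intensity of 6502, 9536 and 15010 in muscle-high tumours, against 4747, 9942 and 15450 in muscle-low tumours. Myc, whose transgenic and endogenous transcripts were not told apart here, had 7079, 10960 and 14750 in muscle-high tumours, against 10170, 12220 and 15540 in muscle-low tumours. Its log2 fold change of -0.17 (SE 0.07, limma adjusted p = 0.341) did not pass the threshold, although 6 muscle-high tumours lay below every muscle-low tumour.

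Across 12388 genes, all but the score genes, 46 were higher and 6 were lower in muscle-high than in muscle-low tumours (called at a limma, Benjamini-Hochberg adjusted p under 0.05), which is 0.371% and 0.0484% of the genes tested and 0.42% together. At an unadjusted p under 0.05 there were 1526 genes. Of 113 genes on the array from 7 skeletal muscle lists, 30 were higher and 0 were lower, or 26.5% against the 0.371% over all genes. Of 258 further genes from 18 lists of other cell types and processes, 2 were higher and 0 were lower. The other 14 higher genes and all 6 lower genes were in no list. In bulk tissue, more muscle fibres and more RNA per fibre cannot be told apart.

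**Figure D2:**
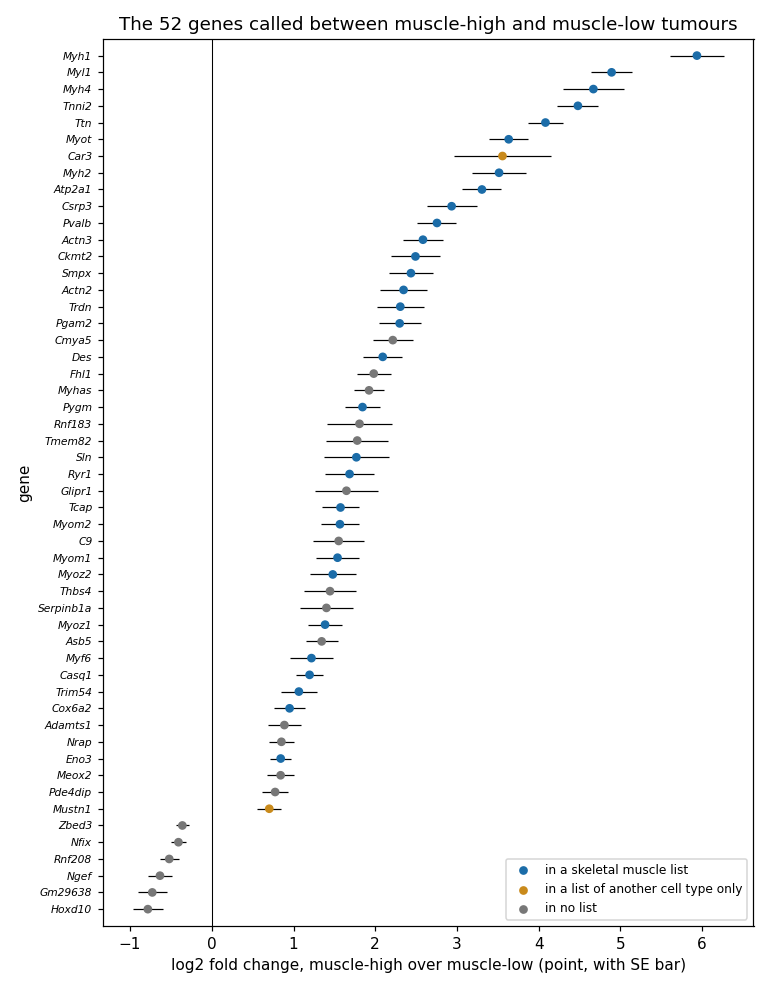
The log2 fold change of muscle-high over muscle-low tumours (point, with its SE as a bar) for the 52 genes past the threshold, coloured by gene list. Skeletal muscle genes hold the top of the order, with Myh1 at 5.94, and the 6 lower genes lie between -0.78 and -0.36.

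Genes of the fast sarcomere moved the most. Of 10 on the array, 8 were higher, and the median log2 fold change of the list was 3.05, against -0.03 over all genes tested. Myh1, the myosin heavy chain of type 2X fibres, had a lowest, median and highest intensity of 184, 724 and 3131 in muscle-high tumours, against 0.530, 7.17 and 29.5 in muscle-low tumours. Every muscle-high tumour lay above every muscle-low tumour, which gave a log2 difference of 5.94 (SE 0.33, limma adjusted p = 9.41e-17). Myl1, the essential light chain of fast myosin, had 188, 483 and 1583 in muscle-high tumours, against 1.12, 16.3 and 29.1 in muscle-low tumours. It too showed no overlap, with a log2 fold change of 4.89 (SE 0.25, limma adjusted p = 8.71e-18). Tnni2, the inhibitory troponin of fast fibres, had 112, 228 and 794 in muscle-high tumours, against 2.13, 4.64 and 48.0 in muscle-low tumours, again without overlap (log2 fold change 4.48, SE 0.25, limma adjusted p = 9.41e-17).

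Myh4, the heavy chain of type 2B fibres, ranged more widely within the muscle-high group. Its intensities were 23.6, 410 and 1518 in muscle-high tumours, against 0.604, 8.45 and 28 in muscle-low tumours, and 19 of 20 muscle-high tumours lay above every muscle-low tumour (log2 fold change 4.67, SE 0.38, limma adjusted p = 1.12e-11). For Myh2, the heavy chain of type 2A fibres, they were 34.2, 102 and 1388 in muscle-high tumours, against 1.91, 4.15 and 23.7 in muscle-low tumours, with no overlap (log2 fold change 3.52, SE 0.33, limma adjusted p = 5.36e-10). Actn3, the alpha-actinin of fast fibres, was higher by a log2 fold change of 2.58. Myom2, an M-band protein, and Myoz1, a Z-disc protein of fast fibres, were higher by 1.57 and 1.39 on the log2 scale. A dimmer probe set gave 0.29 for Myoz1. Further probe sets gave 6.01 and 0.23 for Myh1, and 3.00 and 0.05 for Tnni2. In both genes the smaller value came from the dimmest probe set. The tropomyosins Tpm2 (0.59) and Tpm1 (-0.07), which many cell types express, did not pass the threshold by the probe sets tested, though 2 dimmer probe sets of Tpm2 did in a fit over all probe sets (log2 fold changes 1.43 and 0.56, limma adjusted p = 0.000353 and 0.0476).

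Across the array, 8 genes outside the score, or 0.0646% of those tested, had every muscle-high tumour above every muscle-low tumour. They were Myh1, Myl1, Tnni2, Ttn, Myot, Myh2, Atp2a1 and Fhl1. By their group means, 20 of the 46 higher genes were above the dim mark in muscle-high tumours alone, 21 were below it in both groups and 5 were above it in both. On the log2(intensity + 5) scale the fold changes of dim genes are understated and depend on that added constant. With the label number as a fixed block, where 2 numbers hold tumours of both groups, 0 of the 52 calls were kept by limma, although 1054 genes had an unadjusted p under 0.05.

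Myh2, Myh1, the long noncoding RNA gene Myhas, Myh4 and Myh8 stand next to each other in that order on chromosome 11 in the RefSeq table. Myhas was itself higher, with intensities of 29.4, 67.5 and 214 in muscle-high tumours, against 7.75, 14.8 and 33.1 in muscle-low tumours (log2 fold change 1.92, SE 0.19, limma adjusted p = 1.80e-09). Myh8, the perinatal myosin heavy chain at the end of this row, had intensities of 0.765, 9.81 and 24.4 in muscle-high tumours, against 0.450, 1.5 and 14.8 in muscle-low tumours, and did not pass the threshold (log2 fold change 0.75, adjusted p = 0.173). The heavy chain genes are close in sequence, and how far their probes bind each other's transcripts was not tested.

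The 250 bases before the start of the 3 fast heavy chain genes are shown because their signals parted within the muscle-high group, as described further on. The promoters of Acta1 and of Pgam2, a muscle glycolytic enzyme that was also higher, are shown beside them. All are from RefSeq, build GRCm38.p6, written 5′ to 3′ along the gene, and capitals mark matches on either strand to the E-box (CANNTG), which the myogenic factors bind, to the MEF2 site or to the CArG box of serum response factor.
Myh2 (chr11:67170777-67171026, plus strand): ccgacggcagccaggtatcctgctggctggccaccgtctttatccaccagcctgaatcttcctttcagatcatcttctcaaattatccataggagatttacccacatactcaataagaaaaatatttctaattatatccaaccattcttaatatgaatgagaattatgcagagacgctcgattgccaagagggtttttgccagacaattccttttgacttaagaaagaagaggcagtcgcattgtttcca
Myh1 (chr11:67199852-67200101, plus strand): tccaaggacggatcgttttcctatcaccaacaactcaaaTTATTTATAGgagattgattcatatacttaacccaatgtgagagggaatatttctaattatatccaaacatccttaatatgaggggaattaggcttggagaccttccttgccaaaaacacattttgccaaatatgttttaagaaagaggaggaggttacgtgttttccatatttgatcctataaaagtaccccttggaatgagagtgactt
Myh4 (chr11:67237562-67237811, plus strand): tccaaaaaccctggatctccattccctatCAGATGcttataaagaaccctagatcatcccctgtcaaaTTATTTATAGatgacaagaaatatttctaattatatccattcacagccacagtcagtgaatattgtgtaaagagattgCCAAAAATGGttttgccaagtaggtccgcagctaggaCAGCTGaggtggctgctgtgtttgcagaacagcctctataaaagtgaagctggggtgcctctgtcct
Acta1 (chr8:123894776-123895025, minus strand): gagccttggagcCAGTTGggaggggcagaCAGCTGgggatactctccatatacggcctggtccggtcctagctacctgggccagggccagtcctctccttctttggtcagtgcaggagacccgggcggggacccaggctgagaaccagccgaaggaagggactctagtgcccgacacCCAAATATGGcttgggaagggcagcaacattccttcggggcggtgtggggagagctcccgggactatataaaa
Pgam2 (chr11:5803797-5804046, minus strand): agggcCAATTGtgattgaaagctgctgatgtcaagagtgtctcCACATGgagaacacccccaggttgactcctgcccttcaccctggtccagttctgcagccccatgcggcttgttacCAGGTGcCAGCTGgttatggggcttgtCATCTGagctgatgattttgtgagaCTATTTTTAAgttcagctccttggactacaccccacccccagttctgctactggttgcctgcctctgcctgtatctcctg
Myh2 held no match to these motifs in this window. Myh1 held a MEF2 match at -211, counted from the first base of the motif to the gene's start. Myh4 held E-boxes at -221 and -67, a MEF2 match at -182 and a CArG match at -104. Acta1 held E-boxes at -238 and -221 and a CArG match at -73, and Pgam2 held 5 E-boxes and a MEF2 match at -80. No matches overlapped. Among all 32851 promoters in the table, 66.2% held an E-box, 2.92% a MEF2 match and 1.47% a CArG match. In the 39 promoters found for 32 of the 46 higher genes, these shares were 71.8%, 23.1% and 10.3%. A match is a run of letters and does not show binding.

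Giant filaments, Z-disc and M-band genes followed the sarcomere. Of 14 on the array, 8 were higher, with a list median of 1.30 on the log2 scale. Ttn, the spring that spans the sarcomere from Z-disc to M-band, had intensities of 138, 355 and 1097 in muscle-high tumours, against 9.08, 19.3 and 28.8 in muscle-low tumours. These did not overlap (log2 fold change 4.08, SE 0.22, limma adjusted p = 3.30e-17). Myot, which encodes the Z-disc protein myotilin, had 40.9, 89.7 and 388 in muscle-high tumours, against 0.397, 1.92 and 15.3 in muscle-low tumours, also with no overlap (log2 fold change 3.63, SE 0.24). The LIM protein gene Csrp3 was higher by 2.93, Smpx, a small costamere protein, by 2.44 and the muscle intermediate filament gene Des by 2.09 on the log2 scale. A dimmer probe set of Des gave -0.06. Tcap, which caps titin at the Z-disc, Myom1, an M-band protein, and Trim54, a ubiquitin ligase of muscle, were higher by 1.57, 1.54 and 1.07.

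Among genes of calcium handling and excitation, 6 of 22 were higher, and the list median was 0.30 on the log2 scale. Atp2a1, the fast-fibre pump that returns calcium to the sarcoplasmic reticulum, had intensities of 102, 280 and 642 in muscle-high tumours, against 2.78, 26.5 and 57.6 in muscle-low tumours. The groups did not overlap (log2 fold change 3.31, SE 0.24, limma adjusted p = 2.59e-13). Pvalb, a calcium buffer of fast fibres, was higher by 2.76, and triadin, encoded by Trdn, by 2.31. Dimmer probe sets of Trdn ranged from 0.09 to 1.91. The release channel gene Ryr1 and the calcium store gene Casq1 were higher by 1.69 and 1.20. Sln, a small inhibitor of the calcium pump, was higher by 1.77 (SE 0.40, limma adjusted p = 0.0196), but a muscle-low tumour had its highest intensity, 271, against 235 for the highest muscle-high tumour, and a dimmer probe set gave -0.49. Atp2a2, the pump of slow fibres and of most other cells, had intensities of 4033, 4731 and 5854 in muscle-high tumours, against 4173, 4805 and 5763 in muscle-low tumours (log2 fold change -0.05, limma adjusted p = 0.705). The acetylcholine receptor subunit genes Chrna1 (0.30) and Chrng (0.05) did not pass the threshold.

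Muscle energy metabolism had 5 of 21 genes higher, with a list median of 0.31. Ckmt2, the mitochondrial creatine kinase of sarcomeric muscle, had intensities of 1.24, 25.7 and 237 in muscle-high tumours, against 0.331, 1.39 and 12.2 in muscle-low tumours. In 18 of 20 muscle-high tumours it lay above every muscle-low tumour (log2 fold change 2.49, SE 0.30, limma adjusted p = 2.73e-07). Pgam2 had 10.6, 78.0 and 145 in muscle-high tumours, against 2.01, 8.05 and 12.1 in muscle-low tumours, and 18 of 20 tumours again lay above (log2 fold change 2.30, SE 0.26, limma adjusted p = 4.01e-08). Pygm, the muscle glycogen phosphorylase, was higher by 1.84, and Cox6a2, a muscle subunit of cytochrome oxidase, by 0.95. Eno3, the muscle enolase, was well measured in both groups, with intensities of 165, 266 and 430 in muscle-high tumours and 81.1, 137 and 336 in muscle-low tumours (log2 fold change 0.84, SE 0.13, limma adjusted p = 5.83e-05). The oxygen store gene Mb (0.73, adjusted p = 0.364) and the fatty acid carrier gene Fabp3 (1.55, adjusted p = 0.411) did not pass.

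Regulators of myogenesis and fetal isoforms gave 1 higher gene of 19. That gene was Myf6, the myogenic factor of mature fibres, with intensities of 2.92, 19.5 and 48.6 in muscle-high tumours, against 1.05, 3.02 and 26.8 in muscle-low tumours (log2 fold change 1.22, SE 0.26, limma adjusted p = 0.00952). All of these values lay below the dim mark. Myod1 (-0.08) and Myog (0.51), the determination and differentiation factors, Pax7 (-0.67), a marker of satellite cells, and Myh3 (0.48), the embryonic heavy chain, did not pass the threshold. Their highest intensities in muscle-high tumours were 38.9, 40.6, 29.5 and 60.2, all below the dim mark, and 1 muscle-low tumour reached a Pax7 intensity of 174. None of 14 dystrophin and costamere genes was called by limma, and 1 of them had an unadjusted p under 0.05. Dmd, which encodes dystrophin, had 170, 269 and 467 in muscle-high tumours, against 222, 324 and 478 in muscle-low tumours (log2 fold change -0.18, limma adjusted p = 0.461).

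The slow and cardiac sarcomere list had 2 of 13 genes higher, Actn2 (log2 fold change 2.35), the alpha-actinin of all muscle fibres, and Myoz2 (1.48), a Z-disc protein of slow fibres. The list median was 0.77. The slow-fibre genes proper did not pass as a difference between the groups, with log2 fold changes of 1.29 for Myh7 (limma adjusted p = 0.276), 1.24 for the slow troponin T gene Tnnt1 (adjusted p = 0.195) and 1.16 for the slow light chain gene Myl2 (adjusted p = 0.239).

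Single tumours show what those values hold. Myh7 exceeded the dim mark in 5 muscle-high tumours. Its intensity was 526 in E2F1 null replicate 16, 323 in E2F2 null replicate 7, 136 in E2F3 heterozygous replicate 12, 258 in wild type replicate 1 and 236 in wild type replicate 7. In the other 15 muscle-high tumours it was at most 36.4, close to the muscle-low maximum of 26.3. Tnnt1 exceeded the dim mark in 4 muscle-high tumours, Myl2 in 5 and Tnni1, the slow inhibitory troponin, in 3, and all of these were among the same 5. No muscle-low tumour passed it in any of these genes. Tnnc1 and Myl3, of the same list, did not keep to this pattern. Tnnc1 was 86.1 to 221 in the 5, but also 90.3 in E2F1 null replicate 9, another muscle-high tumour. In muscle-low E2F1 null replicates 19 and 2 it was 146.8 and 79.5. Myl3 was 45.5 to 78.1 in the 5 and 103.4 in muscle-low E2F3 heterozygous replicate 8 (log2 fold change 0.04 between the groups).

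In 2 of those 5 tumours Myh4 lay below the dim mark, at 23.6 in E2F1 null replicate 16 and 34.2 in wild type replicate 1. Over all 5 it ran from 23.6 to 1518, the highest of any muscle-high tumour, and in the 15 tumours with Myh7 under the dim mark it lay above that mark in every case and up to 1196. Myh2 was 230 or more in all 5, against 34.2 to 242 in the other 15. Over the 20 muscle-high tumours the log2 difference of Myh2 minus Myh4 ran from -4.62 to 3.40. Probes differ in brightness, so this difference ranks tumours and is not a ratio of transcripts. The 5 tumours were picked by their Myh7 values, so no test was made between them and the rest. They came from 4 genotypes and lay at ranks 2, 3, 7, 12 and 14 of the score. Adipoq, a fat marker, was 331, 1382, 387 and 1540 in 4 of the 5 and 25.2 in E2F2 null replicate 7. In the other 15 it ran from 2.30 to 390, so only 1382 and 1540 lay above all of these. Car3, which muscle and fat both hold, ran from 1683 to 10268 in the 5 and from 486 to 2888 in the other 15. Among middle tumours, E2F2 null replicate 14 had an Adipoq intensity of 2300 with a Myh7 intensity of 14.6. Other white adipocyte genes were not compared between the 5 and the 15. The part of fat in the slow-fibre signal was not tested.

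**Figure D3:**
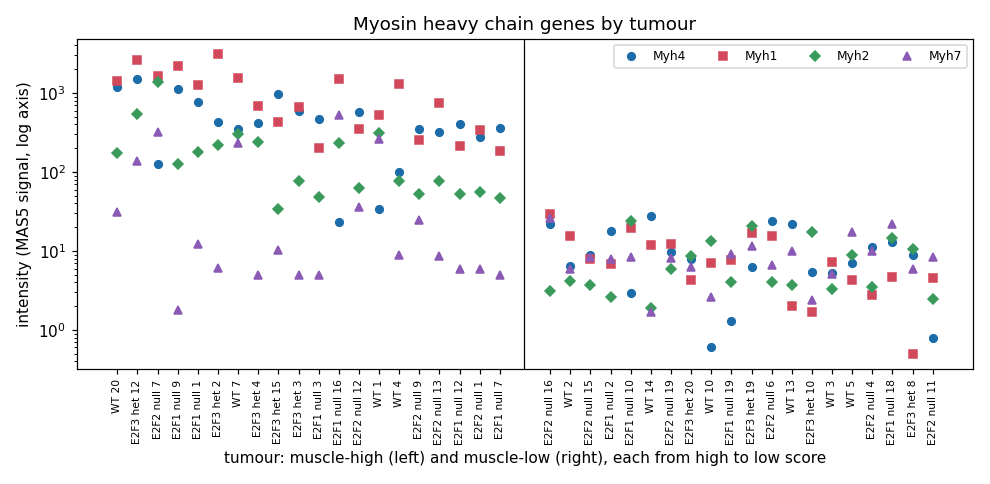
Intensities (MAS5 signal, log axis) of Myh4, Myh1, Myh2 and Myh7 in each muscle-high tumour (left) and each muscle-low tumour (right), ordered by score within each group. Myh1 stays above 184 in every muscle-high tumour, while Myh7 reaches 136 to 526 in 5 of them and Myh4 is lowest, at 23.6, in E2F1 null replicate 16.

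Within the muscle-high group, the genes differed in how steeply they followed the score. The slope per log2 unit of score was 1.35 for Myh1, 1.23 for Myh2, 1.15 for Pgam2 and 1.10 for Ttn, and 0.44 for Des, 0.49 for Casq1 and 0.52 for Eno3. These slopes are descriptions over 20 arrays that share the values that ranked them.

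Beyond the muscle lists, Car3 and Mustn1 were higher. Car3, a carbonic anhydrase that rodent skeletal muscle and fat both hold in quantity, had been listed with white adipocytes. Its intensities were 486, 1395 and 10270 in muscle-high tumours, against 14, 74.7 and 2304 in muscle-low tumours, where 10 of 20 exceeded the dim mark. The groups overlapped, and 5 muscle-high tumours lay above every muscle-low tumour (log2 fold change 3.56, SE 0.60, limma adjusted p = 0.000315). Adipoq, the adipocyte hormone gene, had 2.35, 54.6 and 1541 in muscle-high tumours, against 0.911, 19.5 and 334 in muscle-low tumours (log2 fold change 1.46, adjusted p = 0.328). Over the 16 white adipocyte genes, 13 had a fold change above 0, with a median of 0.74. An unadjusted p under 0.05 was found for 9 of the 16, against 12.3% of all genes tested. The summed intensity of the list ran from 5740 to 40116 in muscle-high and from 3937 to 21792 in muscle-low tumours. The part of fat in the Car3 difference was not tested. Mustn1, a small nuclear protein of the musculoskeletal system, had been listed with smooth muscle and was higher by 0.70 (SE 0.14, limma adjusted p = 0.00654). Of the 11 smooth muscle genes, 7 had a fold change above 0 and 5 an unadjusted p under 0.05, with 0 called besides Mustn1. Acta2, the smooth muscle actin, had 980, 2299 and 7625 in muscle-high tumours, against 989, 1820 and 2889 in muscle-low tumours (log2 fold change 0.41, adjusted p = 0.296).

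Of the genes in no list, Fhl1 was above the dim mark in all muscle-high tumours and in 17 of 20 muscle-low tumours. Fhl1 encodes a LIM-domain protein abundant in skeletal muscle. Its intensities were 208, 472 and 1503 in muscle-high tumours, against 56.8, 156 and 189 in muscle-low tumours. The groups did not overlap (log2 fold change 1.98, SE 0.21, limma adjusted p = 1.53e-08). Its highest intensity of any tumour, 2923, was in the middle tumour E2F1 null replicate 6. It was 1014, 946 and 564 in wild type replicate 6, E2F3 heterozygous replicate 13 and wild type replicate 18. Tnnc2 was 1.9 to 2.9 and Col3a1 11560 to 20923 in these middle tumours. E2F1 null replicate 11, with Tnnc2 at 2.4 and Col3a1 at 10154, had an Fhl1 intensity of 179.5. The source of the Fhl1 signal was not tested. Cmya5, which encodes the muscle protein myospryn, had 33.3, 65.0 and 173 in muscle-high tumours, against 1.5, 11.7 and 37.9 in muscle-low tumours (log2 fold change 2.21, SE 0.25, limma adjusted p = 4.66e-08). Thbs4, a matrix thrombospondin found at tendon and muscle attachments, was higher by 1.45, and Adamts1, a secreted protease, by 0.89. Glipr1 (1.65), Tmem82 (1.78) and Pde4dip (0.77), which encodes myomegalin, were also higher, though a dimmer probe set of Pde4dip gave -0.20 and Tmem82 gave -0.0247 with the label number as a fixed block. Dimmer genes that were higher, chosen with their values in view, were Nrap (0.85), an anchoring protein of growing myofibrils, Asb5 (1.34), Meox2 (0.84), a homeobox factor of somites, C9 (1.55), a complement component, Serpinb1a (1.40) and Rnf183 (1.81). A dimmer probe set gave 0.71 for Serpinb1a and 0.79 for Meox2. In a fit over all probe sets neither passed the threshold (limma adjusted p = 0.188 and 0.0864).

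The 6 lower genes had log2 fold changes between -0.78 and -0.36. Nfix, a transcription factor of the nuclear factor I family, had intensities of 2429, 3854 and 5295 in muscle-high tumours, against 3647, 5516 and 7159 in muscle-low tumours, and 7 muscle-high tumours lay below every muscle-low tumour (log2 fold change -0.41, SE 0.09, limma adjusted p = 0.0196). Zbed3, a zinc finger gene, had 172, 256 and 371 in muscle-high tumours, against 260, 322 and 410 in muscle-low tumours (log2 fold change -0.36, SE 0.08, adjusted p = 0.0229). Dimmer probe sets of Zbed3 gave -0.30, 0.13 and -0.02, and none of these passed the threshold in a fit over all probe sets. Those of Nfix gave -0.43, -0.49, -0.35 and -0.08, and of these only the first passed in that fit (limma adjusted p = 0.0144). Ngef, a guanine nucleotide exchange factor best known in neurons, and Rnf208, a ubiquitin ligase, fell by 0.63 and 0.52 on the log2 scale, though Rnf208 gave 0.12 with the label number as a fixed block. Among genes with muscle-low means above the dim mark alone, Nfix, Zbed3, Rnf208 and Ngef had limma adjusted p of 0.0989, 0.0989, 0.0989 and 0.104, and the higher genes Adamts1 and Glipr1 had 0.117 and 0.125. Hoxd10 (-0.78) and Gm29638 (-0.73) were dim in every tumour, and both were chosen with their values in view. None of the 6 is listed with skeletal muscle here, and all have groups that overlap.

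Genes of the other cell types and processes were followed by list. All 21 fibroblast and collagen matrix genes had fold changes above 0, with a median of 0.59, and 0 passed the threshold by limma, while 16 had an unadjusted p under 0.05. Over all genes tested, 43.2% had a fold change above 0 and 12.3% had an unadjusted p under 0.05. Their smallest adjusted p was 0.121. Their summed intensity ran from 10090 to 83858 in muscle-high tumours and from 12082 to 46323 in muscle-low tumours. Col3a1, a fibrillar collagen, had 1581, 5575 and 11680 in muscle-high tumours, against 1657, 3751 and 7067 in muscle-low tumours (log2 fold change 0.67, adjusted p = 0.173).

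All 12 milk and secretory genes also lay above 0, with a median of 0.98 and 4 at an unadjusted p under 0.05, and 0 passed the threshold. Their summed intensity ran from 6195 to 165843 in muscle-high and from 8973 to 155507 in muscle-low tumours, so single tumours of both groups spanned nearly the whole range. Ltf, the milk protein lactoferrin, had 72.2, 6764 and 13370 in muscle-high tumours, against 41.0, 518 and 10710 in muscle-low tumours (log2 fold change 2.29, SE 0.75, limma adjusted p = 0.227). Krt14, a keratin of basal cells, had 172, 2554 and 6212 in muscle-high tumours, against 55.7, 498 and 5092 in muscle-low tumours (log2 fold change 2.02, SE 0.54, adjusted p = 0.101). Endothelial genes lay above 0 in 13 of 14 cases, with a median of 0.27, and macrophage and myeloid genes in 16 of 16, with a median of 0.24, and 0 of either list passed. At an unadjusted p under 0.05 there were 5 endothelial and 2 macrophage and myeloid genes. The part of these cells in the muscle result was not tested.

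Proliferation genes leaned the other way, also without passing. Of 21 mitosis genes 3 had a fold change above 0, with a median of -0.10, and of 21 replication genes 2 did, with a median of -0.11. By limma 0 of either list passed, and 1 gene in each had an unadjusted p under 0.05. Mki67, a marker of cycling cells, had intensities of 1788, 3009 and 3951 in muscle-high tumours, against 2036, 3305 and 4869 in muscle-low tumours (log2 fold change -0.12, adjusted p = 0.604). The median over Myc target and ribosome biogenesis genes was -0.01, and the median over oxidative phosphorylation genes was 0.07. Spdef, a luminal secretory factor, gave the largest size among luminal genes, -1.56 (SE 0.54, limma adjusted p = 0.249).

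The remaining lists held no called gene. Fold changes above 0 were found for 11 of 14 basal and myoepithelial genes (median 0.49), 5 of 7 brown adipocyte genes (0.43), 10 of 17 squamous genes (0.07) and 7 of 13 lymphocyte genes (0.01). They were also found for 6 of 16 luminal genes (median -0.04), 2 of 7 Schwann cell genes (-0.04), 5 of 14 hypoxia and glycolysis genes (-0.12) and 1 of 3 red blood cell genes (-0.12). At an unadjusted p under 0.05 there were 4 basal, 2 brown adipocyte, 2 squamous, 4 luminal, 1 Schwann cell and 1 hypoxia gene, and 0 lymphocyte or red blood cell genes.

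The 40 tumours in neither group lay on arrays the comparison had not used. There, the slope of each gene per log2 unit of score was fitted. The same score genes rank these tumours, so a gene expressed along with the score genes rises by the making of the score. The slopes therefore describe the middle tumours and are no independent check of the group comparison. In these tumours 11 genes rose with the score and 2 fell, or 0.0888% and 0.0161% of the genes tested (limma, adjusted p under 0.05), with 1321 genes at an unadjusted p under 0.05. All 11 were among the 46 genes higher in muscle-high tumours. They were Myh1 (slope 1.53, SE 0.13, adjusted p = 7.10e-10), Myh4 (1.39), Myl1 (1.10), Myot (0.91), Atp2a1 (0.86), Ttn (0.81), Tnni2 (0.80), Myh2 (0.75), Actn2 (0.61), Smpx (0.57) and Pvalb (0.54). Of the 46 genes, 33 had a slope above 0, against 46.3% of all genes tested, and of the 6 lower genes, 2 had a slope below 0. The 2 genes that fell, Hoxc6 (-0.47) and Osr2 (-0.53), are transcription factors of limb and body patterning, each with a limma adjusted p of 0.0468. Both were dim, with median intensities of 43.5 and 2.05 in the middle tumours. With quantile normalization 0 genes fell, and with a pseudocount of 1 or 16 only 1 did. Hoxc6 and Osr2 gave -0.12 and 0.14 between muscle-high and muscle-low tumours.

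Fhl1 had a slope of -0.05 (SE 0.17, adjusted p = 0.938) in the middle tumours, and Car3 had 0.42 (SE 0.35, adjusted p = 0.659). Nfix had a slope of 0.00 and Zbed3 of 0.03. Most lists of other cell types had medians of opposite sign in the 2 fits. White adipocyte genes had a median of 0.74 between the groups and a median slope of -0.14, milk genes 0.98 and -0.18, basal genes 0.49 and -0.26, endothelial genes 0.27 and -0.26, and macrophage genes 0.24 and -0.14. For the fibroblast list the median slope was -0.36 with 0 of 21 genes above 0, where all 21 lay above 0 between muscle-high and muscle-low tumours, and without E2F1 null replicate 6 it was -0.35. The tumours with the next highest Col3a1 stayed in that fit. They were wild type replicate 6 (17417, score -1.70) and E2F3 heterozygous replicate 13 (16028, score -1.62). All 21 mitosis genes had slopes above 0, with a median of 0.16, and 0 of them passed the threshold. The fast sarcomere list kept its direction, with a median slope of 0.56 and 8 of 10 genes above 0. The Z-disc and M-band list did too (0.14, 11 of 14). Median slopes of the other skeletal lists lay near 0: -0.01 for slow and cardiac sarcomere genes, 0.01 for calcium handling and 0.005 for energy metabolism. They were -0.004 for myogenic regulators and fetal isoforms and -0.004 for dystrophin and costamere genes.

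**Figure D4:**
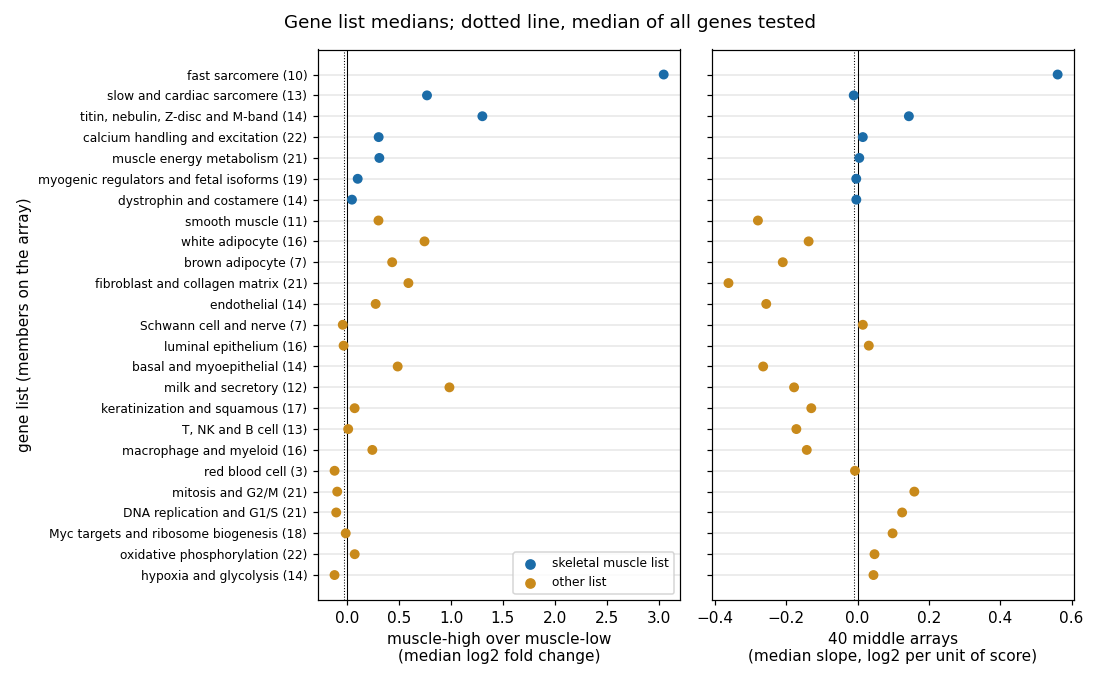
The median over each gene list of the log2 fold change of muscle-high over muscle-low tumours (left) and of the slope on the muscle score in the 40 middle tumours (right, log2 per unit of score), with the number of genes in brackets. The dotted line is the median of all genes tested. The fast sarcomere list is far to the right in both panels, at 3.05 and 0.56, and the fibroblast list lies at 0.59 on the left and -0.36 on the right.

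No difference in the score between genotypes was detectable. The score averaged 0.10 ± 1.73 in E2F1 null (SD over 16 label numbers), -0.17 ± 1.46 in E2F2 null (11), 0.85 ± 1.47 in E2F3 heterozygous (10) and -0.16 ± 1.90 in wild-type tumours (16). The ratio of the variance between genotypes to that within them was 0.882 (permutation test over label numbers, p = 0.458). No gene had a slope on the score that differed between the 4 genotypes at an adjusted p under 0.05 (limma, smallest adjusted p = 0.9995). That is 0% of the genes tested. Of the 12388 genes, 594 had an unadjusted p under 0.05, about the share that this threshold passes where no gene differs. All 52 called genes kept their direction within each genotype alone, which uses the same arrays again. Myh1 gave 5.39 in E2F1 null, 5.12 in E2F2 null, 6.90 in E2F3 heterozygous and 6.52 in wild-type tumours.

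Each label holds a number before a hyphen that several tumours of 1 genotype may share, and no source used here says whether it stands for the mouse. The 80 tumours carried 53 numbers, and 19 numbers held more than 1 tumour. Within these, the score had an SD of 1.84, as over all 80 tumours (1.85), and the median range was 2.64, from 0.309 to 5.59. E2F2 null number 3560 spanned the widest range. Its replicate 7 was muscle-high, with a score of 3.49 and an Acta1 intensity of 4749, its replicate 8 scored -0.29 with 279, and its replicate 6 was muscle-low, with -2.10 and 6.95. E2F1 null number 3886 held a muscle-high tumour, replicate 3, with a score of 2.29 and an Acta1 intensity of 1503, and a muscle-low tumour, replicate 2, with -1.96 and 40.8.

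**Figure D5:**
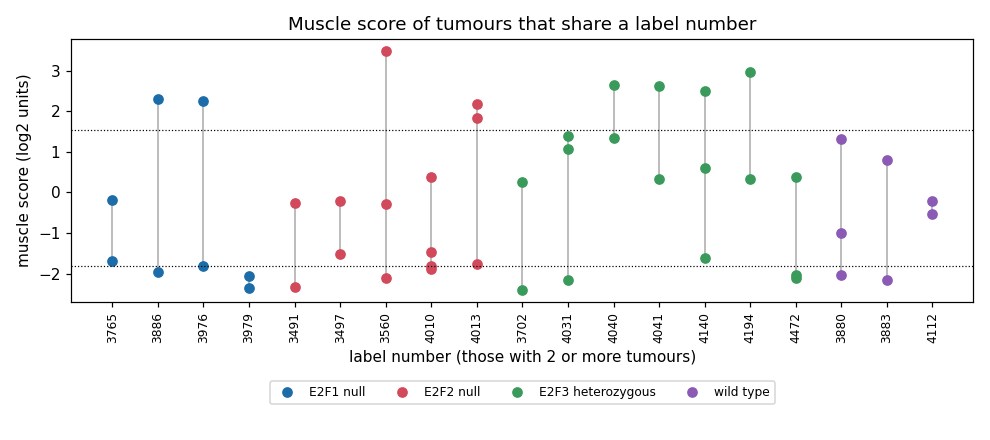
The muscle score of every tumour in the 19 label numbers that hold more than 1, coloured by genotype, with a line joining tumours of a number. Dotted lines mark the edges of the muscle-high (upper) and muscle-low (lower) groups. Numbers 3560 and 3886 cross both lines, and the range within a number reaches 5.59.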

How the data were processed

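Total RNA of 80 MMTV-Myc mammary tumours was measured on 1-colour Affymetrix arrays. The deposited values are MAS5 intensity values on a linear scale, made in Affymetrix Expression Console per the submitters' processing notes, which give no versions. The authors had scaled each array to a trimmed mean near 500 (499.92 to 499.94 here without the top and bottom 2%), so a change in total mRNA per cell cannot be seen. No detection calls were used here. Precision depends on the number of arrays, and SEs of the group difference had a median of 0.146 on the log2 scale.

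Of 22690 probe sets, 64 controls, 691 with several symbols and 1555 with none were left out. The brightest probe set stood for each of 12393 genes. Values were taken as log2(intensity + 5). Muscle-high and muscle-low tumours were compared with limma 3.58.1 (lmFit, eBayes with trend and robust options, two-sided) in R 4.3.3, with genotype as a term and the label number as a random block through statmod 1.5.0 (consensus correlation 0.0419). No filter on low values was used, since one would keep genes through the muscle-high arrays alone. Benjamini-Hochberg adjustment ran over 12388 genes, with a threshold of 0.05. The same model gave slopes on the score in the 40 middle arrays (correlation 0.226) and slopes by genotype over all 80 (0.139). Score and quality were tested by 100000 permutations. The model was tested on simulated data.

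Labels do not say that tumours sharing a number came from separate animals, so p-values measure the spread between these tumours. Named genes were the score genes, called members of each list with the largest fold changes (or, with none called, the largest sizes), members needed for isoforms, and called genes outside the lists whose mean in either group exceeded the 40th percentile of all values, 74.6. Members and lists were chosen with earlier results of these data known. Gene names came from the platform's probe table, and chromosomes and promoters from RefSeq, GRCm38.p6; the deposited files name no build. Other calculations used Python 3.11.15, numpy 2.4.6, pandas 2.3.3 and matplotlib 3.10.9. Alternatives covered the pseudocount (1 and 16), filters, quantile normalization, block, genotype term, group size, quality terms, moderation and every probe set.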

Additional observations from a re-analysis of the deposited data

How the results depend on the processing

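The count of genes that differed between muscle-high and muscle-low tumours, 52, stayed between 35 and 72 under 11 alternatives. These were both pseudocounts, quantile normalization, no replicate block (52), no genotype term, quality terms (72), plain moderation, every probe set, the 10 or 40 (35) most extreme arrays and a slope over all 80. The genes behind the count changed more. Of the 52 calls, 35 were kept with 10 against 10 arrays, 31 with 40 against 40 and 40 with the slope over all 80. With 40 against 40 arrays 0 genes were called lower. The count was 34 with a filter on at least 10 arrays above the 40th percentile, where fewer genes were tested. With muscle-low means above that percentile it was 3, Car3, Eno3 and Fhl1, of 9 called genes that this filter keeps. The other 6, Adamts1, Glipr1, Nfix, Ngef, Rnf208 and Zbed3, lost their calls, with limma adjusted p from 0.0989 to 0.125. Their log2 fold changes under this filter, in that order 0.89, 1.65, -0.41, -0.63, -0.52 and -0.36, were nearly those of the main fit. The cause of the lost calls was not tested. Within 1 genotype the count was 8 in E2F1 null, 7 in E2F2 null, 12 in E2F3 heterozygous and 15 in wild-type tumours, with fewer arrays each. With the label number as a fixed replicate block it was 1, Mdk, not among the 52, since only 2 numbers hold tumours of both groups, and Myh1 then gave 5.24 (limma adjusted p = 0.110). Under that block Rnf208 turned to 0.12, Tmem82 to -0.0247, Mb to -0.0297 and Wap to -0.55. With 40 against 40 arrays Col3a1 turned to -0.0222, Lum to -0.31 and Tpm2 to -0.0233. Tpm2 was -0.23 within E2F1 null tumours, and within E2F2 null tumours Wap was -0.73, Spdef 0.54 and Kit 0.61. The cause of these turns was not tested. With 10 against 10 arrays the 3 quality differences changed sign, to 0.0468 (median log2), 0.0284 (Gapdh) and 0.0511 (beta-actin), with an adjusted p of 0.724 each (permutation test). The middle-tumour count of 13 ranged from 9 to 14, and was 13 without E2F1 null replicate 6, an array in neither group, so that leaving it out does not alter the comparison of the groups. No gene was called for a slope that differed between genotypes under any of 3 alternatives by limma. At an unadjusted p under 0.05 there were 486 of 8761 genes with the filter on at least 10 arrays. There were 511 of 12388 with no replicate block and 651 of 12388 without E2F1 null replicate 6. The score did not differ detectably between genotypes under any of 3 alternatives (permutation test, p from 0.452 to 0.474). Of the 46 higher genes, 5 had muscle-low means above the 40th percentile, which limits the precision of the other fold changes.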

Other observations

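When every probe set was fitted on its own, further genes passed the threshold by a probe set other than the brightest of the gene. Ldb3, a Z-disc protein gene, was higher in muscle-high than in muscle-low tumours by a log2 fold change of 1.84 (SE 0.27, limma adjusted p = 3.20e-05). Art1, an ADP-ribosyltransferase of skeletal muscle, was higher by 1.91 (SE 0.22, adjusted p = 9.62e-08), and Hspb7, a small heat shock protein of heart and muscle, by 1.80 (SE 0.24, adjusted p = 3.42e-06). Txlnb, a muscle taxilin, was higher by 1.13 (SE 0.21, adjusted p = 0.00173). Cxadr, the coxsackievirus and adenovirus receptor, and Vldlr, a lipoprotein receptor, fell by 0.61 (adjusted p = 0.0388) and 0.62 (adjusted p = 0.0377) on the log2 scale. All were chosen with their values in view.

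Of 2246 probe sets with no symbol or several symbols, 0 differed between muscle-high and muscle-low tumours by limma, 211 had an unadjusted p under 0.05 and the smallest adjusted p was 0.0607. This fit was added after seeing the data.

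The Tnnt1 log2 fold change passed the threshold with the 10 highest against the 10 lowest arrays (2.27, limma adjusted p = 0.0430) and as a slope over all 80 arrays (0.27 per unit of score, adjusted p = 0.0159), though not with 20 against 20. The Spdef log2 fold change, of a luminal secretory factor, was -3.22 with 10 against 10 (limma adjusted p = 0.0346).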
